A study of Homo sapiens with 2 samples.

Results

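Fetal hemoglobin switching regulators are the genes that govern the change from fetal to adult globin in red cells. The loci of 8 genes, BCL11A, ZBTB7A, IKZF1, SOX6, KLF1, MYB, HBS1L and LIN28B, were searched for LDB1 peaks. HBS1L was listed as the neighbour of MYB and not as a regulator itself. The members were the peaks that overlapped the GENCODE release 44 body of a listed gene extended by 50 kb on each side, with the intronic erythroid enhancer of BCL11A and the interval from HBS1L to MYB included. Results showed that 17 of the 11046 deposited peaks met this rule. The CUT&Tag library behind them was made with an LDB1 antibody in NB4, an established line of human promyelocytic leukemia. CUT&Tag uses an antibody to tether a transposase, which cuts and tags DNA close to the bound protein. The LDB1 library is labelled as coming from cells with LDB1 overexpression, and the IgG library as untreated NB4 cells, so antibody and treatment cannot be told apart. The study's CUT&Tag methods name NB4 cells without mentioning overexpression, so whether these cells carried extra LDB1 rests on the label alone. Each group had 1 library, so replicate spread could not be measured and groups were not tested against each other. The deposited values were positions and lengths without a peak height, so the depth is unknown.

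Developing red cells first make gamma-globin for fetal hemoglobin and then switch to beta-globin. BCL11A and ZBTB7A are repressors that bind the gamma-globin promoters, IKZF1 and SOX6 are DNA-binding proteins linked to the same silencing, and KLF1 and MYB act above them. LDB1 does not bind DNA itself. In red cells it joins LMO2, TAL1 and GATA1 at a composite element and brings distant enhancers to promoters.

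The composite element was searched as an E-box remnant (CTG), 7 or 8 bases of any kind, and the GATA motif, which was AGATAA or AGATAG or TGATAA or TGATAG, on both strands. The joined windows (2110 kb) held 155 such elements in hg38, and 6 of them (3.87%) lay inside an LDB1 peak. Of the 222683 elements on chromosomes 1 to 22 and X, 1.22% lay inside a peak. Peaks also covered more of the joined windows, 0.583% of their bases compared with 0.208% of the genome. The difference between the shares of elements was not tested. The 6 elements belonged to KLF1, with 3 in the same peak, the HBS1L to MYB interval, MYB and IKZF1. Their surroundings are given in hg38 and 5′ to 3′ on the strand named, with the composite in capitals.
KLF1, 58 bp upstream of the TSS, chr19:12887209-12887308, plus strand: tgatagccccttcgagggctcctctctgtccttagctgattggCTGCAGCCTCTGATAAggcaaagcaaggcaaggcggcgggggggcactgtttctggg
KLF1, 436 bp upstream of the TSS, chr19:12887587-12887686, minus strand: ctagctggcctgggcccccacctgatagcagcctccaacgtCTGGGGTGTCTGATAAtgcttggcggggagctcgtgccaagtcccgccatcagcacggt
KLF1, 843 bp downstream of the TSS in intron 1, chr19:12886308-12886407, plus strand: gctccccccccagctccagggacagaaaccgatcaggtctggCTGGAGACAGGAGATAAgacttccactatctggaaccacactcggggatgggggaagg
HBS1L to MYB interval, 70.9 kb upstream of the MYB TSS, chr6:135110377-135110476, plus strand: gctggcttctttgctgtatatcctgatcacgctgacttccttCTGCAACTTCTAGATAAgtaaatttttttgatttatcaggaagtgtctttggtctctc
MYB, 11.0 kb downstream of the TSS, chr6:135192274-135192373, plus strand: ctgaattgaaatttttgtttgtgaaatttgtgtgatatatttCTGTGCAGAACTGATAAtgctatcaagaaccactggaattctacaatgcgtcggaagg
IKZF1, 51.3 kb downstream of the TSS in intron 3, chr7:50355946-50356045, minus strand: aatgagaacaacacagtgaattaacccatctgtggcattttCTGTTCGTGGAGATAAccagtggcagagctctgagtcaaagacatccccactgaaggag

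The spacing between CTG and the GATA motif was 7 bases in both upstream KLF1 elements and in the IKZF1 element. It was 8 bases in the KLF1 intron, the HBS1L to MYB interval and MYB. The MYB element spanned a splice site. Its last 9 bases, which hold the GATA motif, are coding bases of exon 6, and the rest lies in intron 5.

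Of the 8 genes, 7 (87.5%, Wilson 95% interval 52.9 to 97.8%) had a peak in the body plus 50 kb. Among 19970 protein-coding genes 44.9% did so by the same rule. With 3 kb in place of 50 kb the same number of genes, 7, had a peak, compared with 19.8% of all protein-coding genes. Gene lengths were not matched, and a longer window meets a peak more easily. The 8 genes were also chosen with earlier results of these data known. BCL11A was the gene without a peak within 50 kb, and so also within 3 kb. The interval above and each interval below cover counting error in the 1 library only.

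The loci differed widely in the density of peaks. KLF1 had 3 peaks in 103 kb, or 29.2 per Mb (exact Poisson 95% interval 6.02 to 85.3). MYB followed with 4 peaks and 29.0 per Mb (7.91 to 74.3), and IKZF1 had 4 and 19.9 per Mb (5.42 to 50.9). HBS1L had 3 peaks at 12.4 per Mb (2.55 to 36.1). The remaining loci with a peak had 1 each. The density was 8.09 per Mb at ZBTB7A (0.205 to 45.1), 4.05 at LIN28B (0.103 to 22.6) and 1.15 at SOX6 (0.029 to 6.38), the longest of the genes with a body of 773 kb. Neighbours in this order had overlapping intervals, while those of MYB and SOX6 did not overlap. The intervals treat peaks as independent, although 2 KLF1 peaks lay 328 bp apart and 2 IKZF1 peaks 369 bp apart. Among protein-coding genes 7.44% had a higher density than KLF1, 12.7% a higher one than IKZF1 and 44.9% a higher one than SOX6. The last share equals that of genes with any peak, so hardly any gene with a peak had a lower density than SOX6. The median gene had 0 peaks in its window, and the joined windows held 8.06 peaks per Mb compared with 3.64 on chromosomes 1 to 22 and X. Chromosomes differed as well. Chromosome 19, which holds KLF1 and ZBTB7A, had 9.54 peaks per Mb, more than the ZBTB7A window. Chromosomes 2, 6, 7 and 11 had 3.46, 4.27, 3.61 and 3.8 per Mb. The order of the loci was not adjusted for this.

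**Figure D1:**
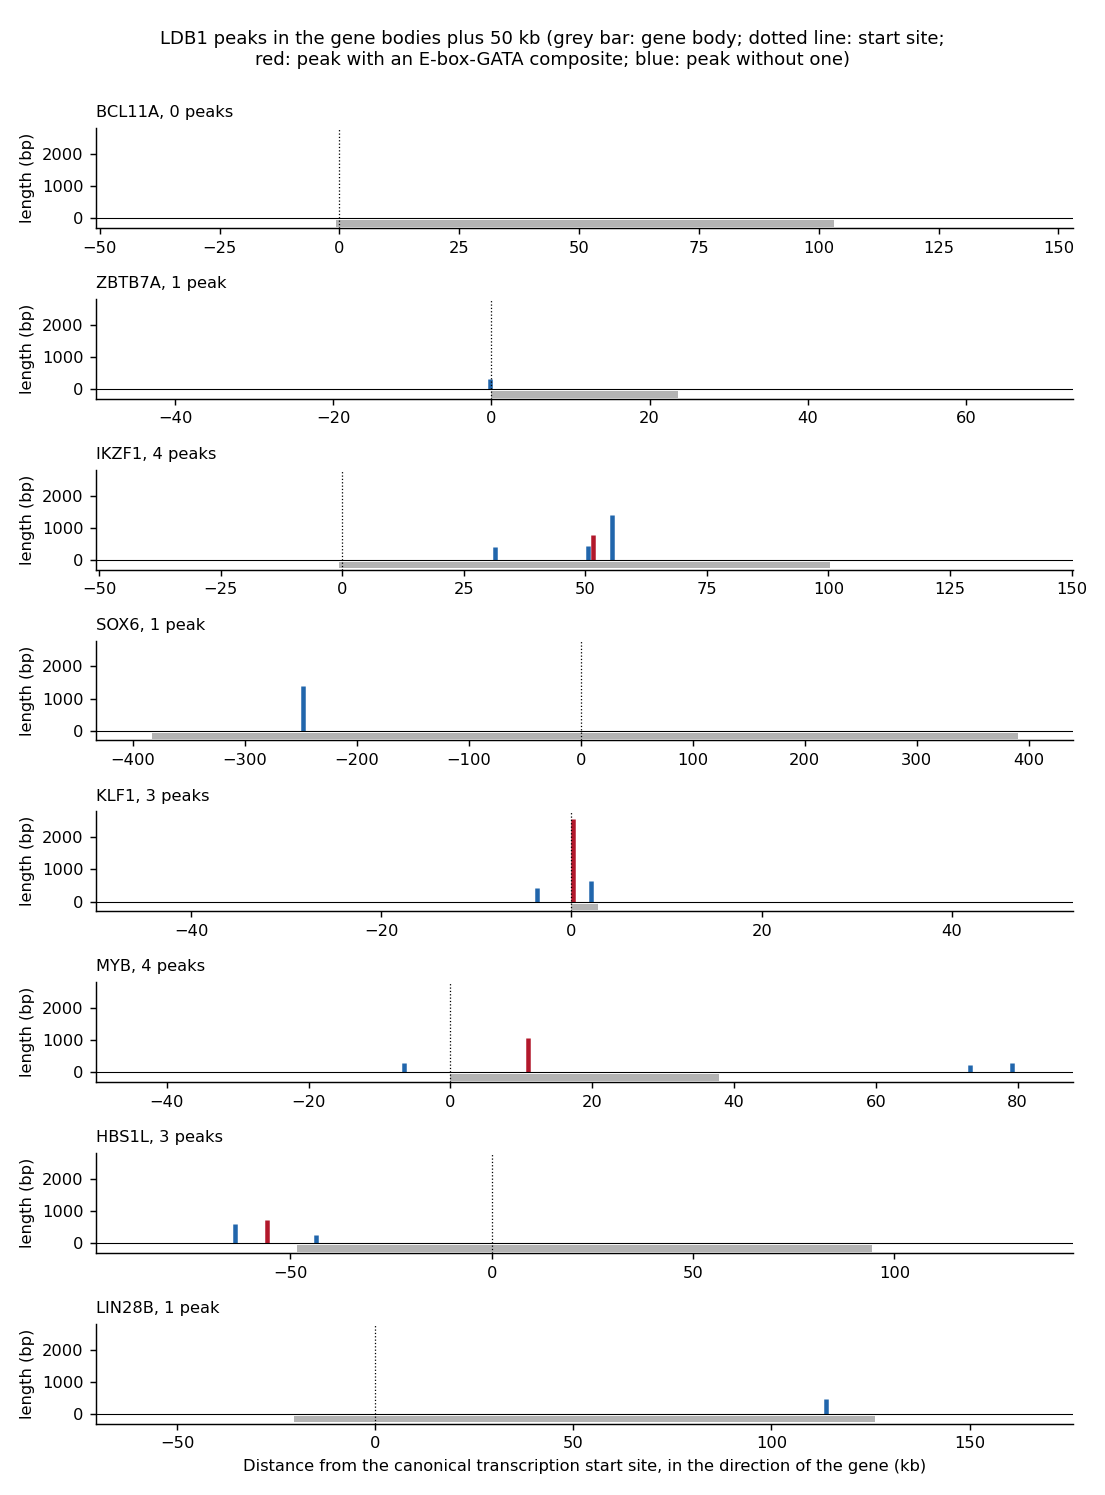
LDB1 peaks at the 8 loci, plotted by distance from the canonical transcription start site (x axis, kb, a different range for each gene) and by peak length (y axis, bp), over each gene body plus 50 kb. BCL11A has 0 peaks, the 4 IKZF1 peaks lie inside the gene, and the 4 red bars are the peaks with a composite, in IKZF1, KLF1, MYB and upstream of HBS1L.

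The globin repressors came first. BCL11A (ENSG00000119866.22, chromosome 2, 60450520 to 60554467, minus strand) had 0 peaks in 204 kb, and 3 counts, the limit that a count of 0 allows, would be 14.7 per Mb. Its intronic enhancer is the element that keeps BCL11A active in red cells. It was searched as the 15 kb from 50 to 65 kb downstream of the TSS (60488654 to 60503654), which lie wholly in intron 2. This window also held 0 peaks. It held 2 composites, 58.4 and 60.2 kb downstream of the TSS, and the window of the whole gene held 17. With 0 peaks there, none of them could lie in a peak.

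The peak nearest to BCL11A was 1066262 bp from the gene, at 61620729 to 61620981 (253 bp). Only 5.0% of protein-coding genes were farther from a peak. There were 0 peaks within 500 kb of the BCL11A TSS, as for 13.8% of protein-coding genes, whose median was 5. The gene lay in a stretch of 2.93 Mb without a peak. Of 11023 gaps between neighbouring peaks, 194 (1.76%) were longer, and the median gap was 30.5 kb. That share counts gaps and not bases, and long gaps cover more of the genome than their number shows. Gaps over centromeres or unsequenced stretches were not left out. The stretch without peaks was thus far longer than the enhancer window.

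ZBTB7A (ENSG00000178951.9, chromosome 19, 4043303 to 4066899, minus strand), the other direct repressor of gamma-globin, had 1 peak at 4066980 to 4067285 (306 bp). Its midpoint lay 233 bp upstream of the TSS and its edge 81 bp from it. The peak was short, as 77.0% of all peaks were at least as long, and it covered 170 of the 300 bases of the RefSeq promoter (250 bases before to 50 after the start). It had 76.1% G and C, 4 separate sites with the KLF motif (CCNCNCCC, both strands, overlapping matches counted as 1 site) and 2 with the GATA motif. None of the 3 composites in the ZBTB7A window lay in the peak. The GATA motif nearest to the peak midpoint is shown in capitals, because it stands in otherwise G and C rich sequence. It lies upstream of that RefSeq promoter, which itself holds 0 matches to the GATA motif.
ZBTB7A, upstream of the TSS, chr19:4067134-4067233, minus strand: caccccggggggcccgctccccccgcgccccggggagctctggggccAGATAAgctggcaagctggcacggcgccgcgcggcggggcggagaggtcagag

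IKZF1 (ENSG00000185811.21, chromosome 7, 50304068 to 50405101, plus strand), which encodes the lymphoid and erythroid factor Ikaros, had 4 peaks. They were all in intron 3 of the canonical transcript, 31.5, 50.5, 51.5 and 55.5 kb downstream of the TSS. Their lengths were 414, 448, 782 and 1391 bp in that order. The longest, at 50359511 to 50360901, was matched or exceeded in length by 4.51% of all peaks. The third (50355845 to 50356626) carried the composite. Only 369 bp lay between the second and the third, and 2884 bp between the third and the fourth. The group stood apart on its left side, where the preceding peak was 2853359 bp away. None of the RefSeq promoters of IKZF1 overlapped a peak.

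SOX6 (ENSG00000110693.19, chromosome 11, 15966449 to 16739591, minus strand), a partner of BCL11A at the globin genes, had 1 peak at 16604355 to 16605749. Its length of 1395 bp was reached by 4.47% of all peaks. The peak lay 248.5 kb upstream of the canonical TSS, inside the long form of the gene, with its midpoint 939 bp from another annotated SOX6 TSS. Its central 200 bp had 73.5% G and C. The SOX6 window held 72 composites, the most of any of the 8 genes, and 0 of them lay in a peak. The peak did hold 2 single GATA motifs close together on the same strand, which are shown in capitals.
SOX6, near an alternative TSS, chr11:16604845-16604944, minus strand: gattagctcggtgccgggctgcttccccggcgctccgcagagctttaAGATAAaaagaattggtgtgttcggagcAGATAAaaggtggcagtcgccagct

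KLF1 (ENSG00000105610.6, chromosome 19, 12884422 to 12887201, minus strand) is the erythroid factor that activates beta-globin, BCL11A and ZBTB7A. It carried the longest peak of the 17, at 12885812 to 12888369. This peak was 2558 bp long, rank 65 in the whole list, and 0.588% of all peaks were at least as long. It covered the TSS, exon 1, intron 1 and part of exon 2, with 418 coding bases, and held 3 composites and 9 matches to the GATA motif. A second peak (12884856 to 12885483, 628 bp) began 328 bp beyond its edge, with its midpoint in intron 2 and 340 coding bases. The third (12890628 to 12891045, 418 bp) lay 3635 bp upstream of KLF1 but 324 bp from the TSS of GCDH, a gene of lysine breakdown. Of the 8 composites in the KLF1 window, 3 lay in a peak.

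The whole RefSeq promoter of KLF1 (300 of 300 bases) lay in the long peak. It is shown on the strand of the gene with the composite and a second GATA motif in capitals, both of which read on the opposite strand. A composite occurred in 1.33% of 34961 RefSeq promoters of this length, and the GATA motif in 24.9%.
KLF1 promoter, GRCh38.p14, chr19:12887152-12887451, minus strand: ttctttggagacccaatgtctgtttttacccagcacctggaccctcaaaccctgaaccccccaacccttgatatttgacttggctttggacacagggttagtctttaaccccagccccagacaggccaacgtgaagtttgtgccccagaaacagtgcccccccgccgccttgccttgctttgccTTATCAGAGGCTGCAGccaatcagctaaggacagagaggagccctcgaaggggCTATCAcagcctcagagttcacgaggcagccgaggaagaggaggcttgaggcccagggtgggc

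**Figure D2:**
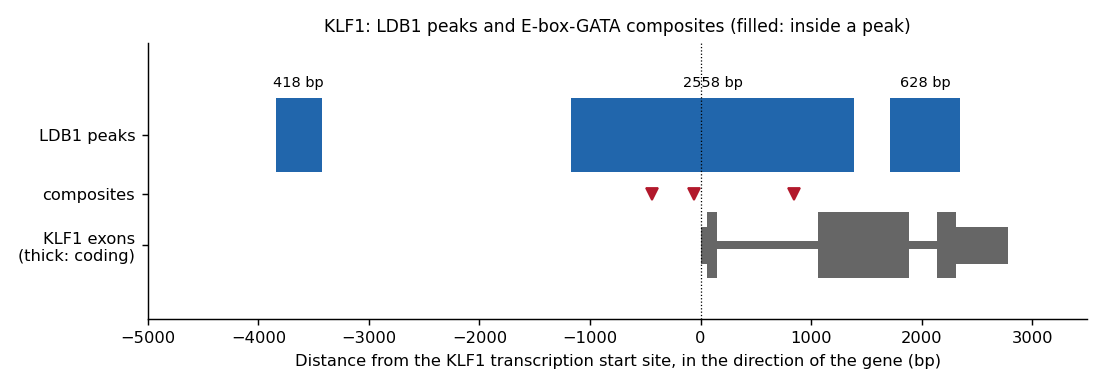
KLF1 with its LDB1 peaks and composites, plotted by distance from the KLF1 transcription start site (x axis, bp). The boxes are peaks with their length, the triangles composites and the grey bars exons. The peak of 2558 bp spans the start site and all 3 composites.

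The labelled cell type was checked with markers fixed for this purpose, since KLF1 is a red cell gene. A peak in the gene or within 3 kb was found for 2 of 6 promyelocyte genes (AZU1 and CD33) and for 3 of the 5 red cell genes reported (ALAS2, SLC4A1 and EPB42). Within 3 kb the longest peak was 4718 bp at SLC4A1 (7 peaks), 1309 bp at ALAS2 (2) and 734 bp at EPB42 (1). It was 397 bp at AZU1 and 233 bp at CD33, with 1 peak each. Within 50 kb the counts of genes were closer, 4 of 6 and 4 of 5, with none at MPO, CTSG and AHSP. Of the promyelocyte genes, AZU1, PRTN3 and ELANE are neighbours on chromosome 19 and share peaks, so they are not separate counts. Among all protein-coding genes the shares were 19.8% within 3 kb and 44.9% within 50 kb. Both lists are small, peaks do not measure expression, and the part of other cells in these results was not tested.

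MYB (ENSG00000118513.20, chromosome 6, 135181308 to 135219173, plus strand) encodes a factor that keeps progenitors dividing, and low MYB levels in red cell precursors are known to go with high fetal hemoglobin. HBS1L (ENSG00000112339.15, chromosome 6, 134960378 to 135103056, minus strand), its neighbour, encodes a factor that rescues stalled ribosomes. The sequence between them is known for variants linked to fetal hemoglobin and for erythroid enhancers that contact the MYB promoter. The interval between the gene bodies (135103057 to 135181307, 78.3 kb) held 3 peaks, or 38.3 per Mb. Measured from the MYB TSS, they lay 70.8, 62.9 and 6.5 kb upstream.

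The peak 70.8 kb upstream (135110111 to 135110843) was 733 bp long, and 20.5% of all peaks were at least as long. It held the composite shown above, 50 bp from its midpoint, and 4 GATA motifs in all. The peak 62.9 kb upstream (135118135 to 135118738, 604 bp) held no composite but 3 GATA motifs and 2 TAL1 E-boxes. Its GATA motif nearest to the midpoint is shown in capitals for comparison with the composite.
HBS1L to MYB interval, chr6:135118299-135118398, plus strand: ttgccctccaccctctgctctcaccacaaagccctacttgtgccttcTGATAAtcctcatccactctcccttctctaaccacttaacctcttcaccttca

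The peak 6.5 kb upstream (135174675 to 135174966, 292 bp) was of another kind. Its central 31 bases occur 331 times in hg38, so reads there may be shared with other copies. Another peak, 82.8 kb upstream of MYB (135098371 to 135098620, 250 bp), lay inside the annotated HBS1L body but 43673 bp upstream of the canonical HBS1L TSS. It was among the shortest peaks, since 92.3% of all peaks were at least as long, and had no GATA motif anywhere. Counted from the canonical HBS1L TSS, a choice made after seeing the data, the interval held 4 peaks. Of the 4 composites between the gene bodies, 1 lay in a peak.

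Inside MYB, 1 peak (135191724 to 135192782) was 1059 bp long, and 9.19% of all peaks were at least as long. Its midpoint lay 10.9 kb downstream of the TSS in intron 5. It contained the whole of exon 6 (235 coding bases) and held 6 GATA motifs, among them that of the composite in exon 6. Beyond the gene lay 2 short peaks, 73.3 kb (237 bp) and 79.2 kb (293 bp) downstream of the TSS. The latter was 464 bp from the TSS of a long noncoding RNA (ENSG00000224374). It had no GATA motif but 1 match each to the RUNX and AP-1 motifs. No peak overlapped the RefSeq promoter of MYB or of HBS1L, and within 500 kb of their TSS there were 13 and 14 peaks.

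**Figure D3:**
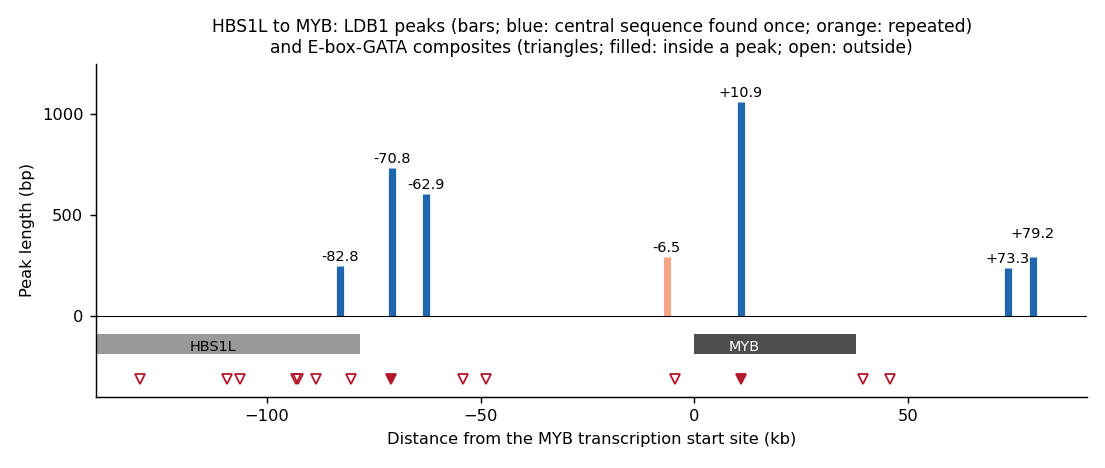
HBS1L to MYB, plotted by distance from the MYB transcription start site (x axis, kb) and by peak length (y axis, bp). Bars are peaks labelled with their distance, grey boxes are gene bodies and triangles are composites. The 2 filled triangles fall on the peaks at -70.8 and +10.9 kb, and the orange bar at -6.5 kb is the peak with a repeated central sequence.

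LIN28B (ENSG00000187772.8, chromosome 6, 104936616 to 105083332, plus strand), a fetal RNA-binding protein that lowers BCL11A protein, had 1 peak at 105070522 to 105071005 (484 bp). It lay in intron 3, 113.7 kb downstream of the TSS. It held 4 GATA motifs and 1 TAL1 E-box, but its central 31 bases occur 2 times in hg38. The LIN28B window held 15 composites, 0 of them in a peak. With peaks whose central sequence occurs once, LIN28B had no peak and the count of genes with one fell to 6. In all, 2 of the 17 peaks had a repeated central sequence, compared with 10.7% of all peaks.

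The 17 peaks were then described together. Their lengths ran from 237 to 2558 bp with a median of 484 bp (interval 306 to 782), and the median of all peaks was 451 bp. Of the 17, 4 were among the longest 10% of the list, namely those of KLF1, SOX6, IKZF1 and MYB. Near a TSS, which means a midpoint within 3 kb of the TSS of any annotated transcript, lay 6 of 17 (35.3%, interval 17.3 to 58.7%), and 35.6% of all peaks did so. Counted by genes, only ZBTB7A and KLF1 had a peak within 3 kb of the canonical TSS, 2 of 8, compared with 6.52% of protein-coding genes.

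**Figure D4:**
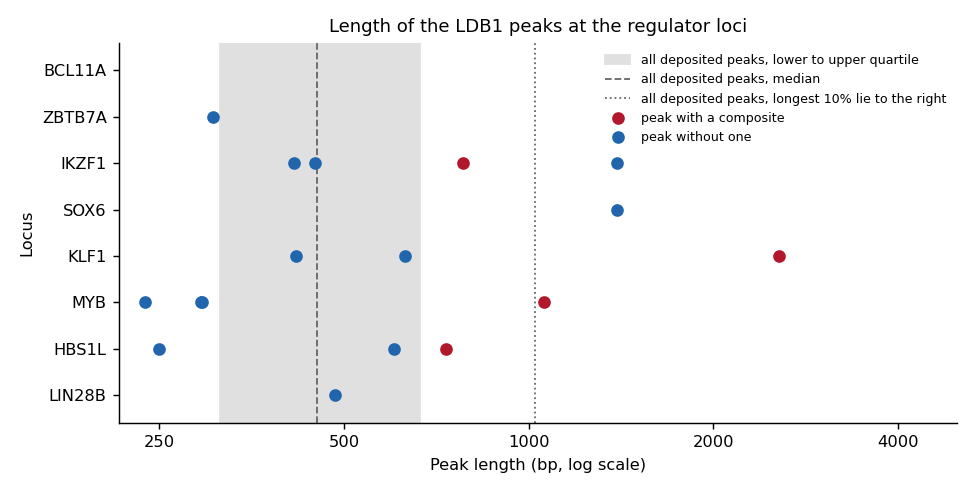
Length of each of the 17 peaks (x axis, bp, log scale) by locus (y axis). The grey band spans the lower to upper quartile of all deposited peaks (314 to 666 bp), the dashed line is their median and the dotted line marks the longest 10%. KLF1, SOX6, IKZF1 and MYB each have 1 peak to the right of the dotted line, and BCL11A has none.

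Motifs in the central 200 bp of each peak were compared with those of all 11046 peaks. The GATA motif occurred in 10 of 17 (58.8%, interval 36.0 to 78.4%) and in 47.1% of all peaks. In windows of the same size 1000 bp to either side it was found in 44.1% for these loci and in 27.6% for all peaks, and 5 of the 34 windows overlapped a peak. The composite occurred in 2 of 17 (11.8%, 3.29 to 34.3%) and in 11.1% of all peaks. Over whole peaks, 15 of 17 (88.2%) held the GATA motif and 4 of 17 (23.5%) a composite, compared with 71.4% and 22.4% of all peaks. The composite shares were thus close to those of the whole list. The GATA shares were higher in the central 200 bp and over whole peaks, but close in the central 100 bp (29.4% and 28.2% of all peaks). Flanks of these loci also had a higher share than those of all peaks. The interval for the central 200 bp included the share of all peaks, none was computed for whole peaks, and the difference was not tested. The peaks without a GATA motif were those 82.8 kb upstream and 79.2 kb downstream of the MYB TSS.

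The TAL1 E-box (CAGATG or CAGCTG) was found in 6 of 17 peaks (35.3%) and in 33.8% of all. The RUNX motif (TGTGGT or TGCGGT) was found in 3 (17.6%) and in 20.5% of all. The KLF motif was found in 7 (41.2%) and in 32.0% of all, AP-1 (TGAGTCA) in 1 (5.88%) and in 9.48% of all. The motif TGACCA, which BCL11A itself binds, was found in 3 (17.6%) and in 12.4% of all. The CTCF motif was found in 0 of 17, where 0.308% of all peaks had it. Each of these intervals included the share of all peaks.

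The interval lay above the share of all peaks for 2 of the 10 motifs. The ETS motif (AGGAAGT or CGGAAGT) was found in 4 of 17 (23.5%, 9.56 to 47.3%) and in 6.19% of all peaks. The MYB motif (TAACTG or TAACGG or CAACTG or CAACGG) was found in 7 of 17 (41.2%, 21.6 to 64%) and in 20.0% of all. The ETS matches lay in the peaks of the KLF1 TSS, the 70.8 kb element and 2 of IKZF1, which were only 369 bp apart. These are counts of a few peaks among 10 motifs, no test was made, and a match is not a bound site.

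**Figure D5:**
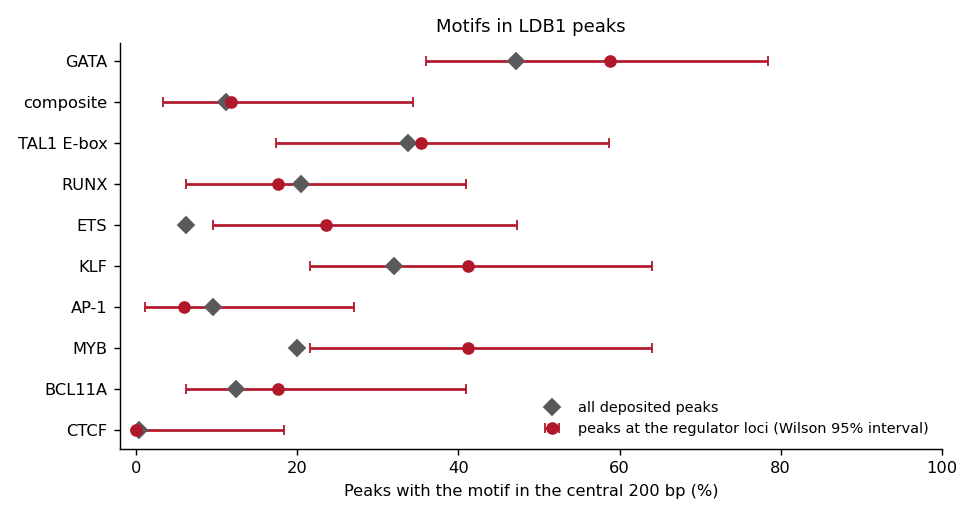
Share of peaks with each motif in the central 200 bp (x axis, %) by motif (y axis). Red points are the 17 peaks with Wilson 95% intervals and grey diamonds are all 11046 peaks. The diamond lies left of the interval for ETS and MYB and inside it for the other motifs.

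Other genes known to act on fetal globin were searched in the same way. Of 34 genes, 28 (82.4%, 66.5 to 91.7%) had a peak in the body plus 50 kb and 17 (50%, 34.1 to 65.9%) in the body plus 3 kb, where all protein-coding genes had 44.9% and 19.8%. All 12 DNA-binding factors had a peak within 50 kb, and so did 10 of 15 corepressor subunits and chromatin enzymes and 6 of 7 signalling and RNA regulators. The genes without one were HDAC1, MBD2, GATAD2A, EHMT1, EHMT2 and KIT. A peak within 3 kb of the canonical TSS was found for 4 DNA-binding factors, GATA1, GATA2, TAL1 and NFE2. It was found for 0 of the 15 corepressor genes and for 3 of the last group. Among all protein-coding genes 6.52% had such a peak, so few or none would be found among 15 genes at that share. The list was chosen with results of these data known and gene lengths were not matched, so its count is a description.

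Taking the longest peak of each of these genes, the 5 with the greatest length were 4273 bp in NFE2, 4233 bp at 50 kb downstream of the TAL1 TSS, 3250 bp in NFIX, 2204 bp at 14.7 kb downstream of the GATA1 TSS and 1748 bp near CHD4. TAL1, the E-box partner of LDB1, had 13 peaks in its window (112 per Mb) and GATA1 had 8 (74.2 per Mb). Both densities were above those of the 8 genes of the main list, where KLF1 had the highest at 29.2 per Mb. The median over the 34 genes was 10.2 peaks per Mb, equal to the median over the 8 genes.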

How the data were processed

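The authors made 2 CUT&Tag libraries from NB4 cells, 1 for LDB1 and 1 for IgG. Per the labels and methods, alignment to hg38 used Bowtie2 2.4.4, and MACS3 3.0 called peaks from fragment pairs under a q-value limit. Whether IgG served as the control is not given in the sources used here. The deposited values were peak start, end and length in bp, with no score, summit or q-value. Peaks were numbered from 1 to 11046 without gaps. Antibody, labelled treatment and library cannot be told apart.

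The members and gene lists were chosen with earlier results of these data known. Genes came from GENCODE release 44 (chromosomes 1 to 22 and X), with 1 canonical transcript per gene. Promoter sequences came from RefSeq (GRCh38.p14), where all 8 symbols matched. The peaks described with their positions were the longest of each gene, the one nearest its TSS, those of the enhancer window and the interval, and those with a composite, and among the other regulators the 5 greatest lengths when each gene gave its longest peak, and the genes without a peak. The copies of the central 31 bases were counted in hg38 on both strands. Shares have Wilson and densities exact Poisson 95% intervals, and the interval of a median length came from its order statistics. Counting was checked on simulated data. Python 3.11.15, pandas 2.3.3, scipy 1.17.1 and pysam 0.24.0 were used. One red cell marker of the fixed list is not reported here.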

Additional observations from a re-analysis of the deposited data

How the results depend on the processing

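No paired analysis was possible because LDB1 and IgG came as 1 library each. Alternatives covered the window around each gene, the longer peaks only, peaks with a central sequence found once, merged peaks, midpoints, the motif window and the TSS definition. Of 47 alternative values, 40 stayed within 1.5 times the count or within the counting interval, and 7 did not. The other fetal globin regulators with a peak numbered 17 of 34 with 10 kb and also with 3 kb around each gene, which follows from the smaller window. The peaks at the 8 loci numbered 9 in the longer part of the list (5523 peaks), by construction. In the central 100 bp the share with a composite was 0.0% and with the GATA motif 29.4%, where all peaks had 5.49% and 28.2%. Over whole peaks the GATA share was 88.2%. With both gene bodies added, the HBS1L to MYB interval held 5 peaks. The interval from the canonical HBS1L start (4 peaks) was added after seeing the data. BCL11A and its enhancer window had 0 peaks under each alternative run. None of these widened a window at BCL11A or added a peak, so this outcome was fixed in advance. The depth is unknown, so a missing peak does not show that LDB1 is absent.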

Other observations

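Composites without a peak were common at these loci. The BCL11A and IKZF1 windows held the same number, 17, at 8.34 and 8.46 per 100 kb. BCL11A had no peak in its window, so none of its composites could lie in one, and at IKZF1 1 did. Across chromosomes 1 to 22 and X, 1.22% of composites lay in a peak. SOX6 had 8.25 per 100 kb and 0 of 72 in a peak, and KLF1 had 7.78 per 100 kb and 3 of 8 in a peak. The other genes had 7.83 per 100 kb at HBS1L (1 of 19 in a peak), 6.08 at LIN28B (0 of 15), 3.63 at MYB (1 of 5) and 2.43 at ZBTB7A (0 of 3). Differences between genes were not tested. Peaks within 500 kb of the TSS numbered 0 at BCL11A, 1 at SOX6, 2 at LIN28B, 6 at IKZF1, 9 at ZBTB7A, 13 at MYB, 14 at HBS1L and 18 at KLF1.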
